A study of Caenorhabditis elegans with 18 samples.

Results

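The 8 genes described here mark or serve the AFD thermosensory neurons of *C. elegans*: the receptor guanylyl cyclase genes *gcy-8*, *gcy-18*, *gcy-23* and *gcy-29*, the channel subunit genes *tax-2* and *tax-4*, and the transcription factor genes *ttx-1* and *nhr-38*. They were chosen by name, as the rows of the count files whose WormBase gene identifier carries one of these symbols, and all 8 were found among 46726 genes. Poly(A) RNA was measured from whole worms, synchronized and taken at the fourth larval stage, in 6 genotypes with 3 biological replicates each (labelled A, B and C), which gives 18 libraries. The genotypes were wild type (N2), the single deletion mutants *ceh-14(ch3)*, *fust-1(csb21)* and *tdp-1(csb38)*, and the double mutants that carry the *ceh-14* deletion with that of *fust-1* (written *fust-1; ceh-14*) or with that of *tdp-1* (written *tdp-1; ceh-14*). CEH-14 is a LIM homeodomain transcription factor, and FUST-1 and TDP-1 are RNA binding proteins. The *fust-1* and *tdp-1* deletions carry a GFP marker in the pharynx (*myo-2* promoter) or body wall muscle (*myo-3* promoter), which wild type and the *ceh-14* single mutant lack.

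AFD is a pair of sensory neurons in the head with villus-like endings embedded in the amphid sheath glia, and it lets the worm steer to the temperature at which it was raised. Warming is read by receptor guanylyl cyclases in the sensory ending, which make cyclic GMP, and cyclic GMP opens a cation channel built from TAX-2 and TAX-4. TTX-1, a homeodomain protein of the OTX family, sets the identity of the neuron, and CEH-14 is a known contributor to AFD function that is also present in other neurons such as ALA. GCY-8, GCY-18 and GCY-23 are known from AFD alone, whereas TAX-2 and TAX-4 serve many sensory neurons for smell, taste and gases, and *ttx-1* is also used in the sheath glia. In RNA of a whole animal, fewer cells of a type and less RNA per cell cannot be told apart.

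The libraries held 19556372 to 119814176 counts in genes, with a median of 50634860. The deleted genes were low where the labels place the deletions. *ceh-14* stood at 2.70 to 7.01 CPM (counts scaled to a common library total, the usual CPM unit, with TMM-scaled library sizes) in the 9 libraries with the gene intact and at 0.675 to 2.47 CPM in the 9 libraries without it, so the groups did not overlap. *fust-1* stood at 35.9 to 51.6 CPM in its 6 mutant libraries against 144 to 183 CPM in the other 12, and *tdp-1* at 13.7 to 23.3 CPM against 84.2 to 124 CPM. Replicate C of *fust-1* and replicate C of *tdp-1; ceh-14* stood apart, with a mean correlation of 0.954 and 0.958 with the other 17 libraries where the rest had 0.966 to 0.979. The body wall muscle markers (*unc-54*, *myo-3*, *unc-15* and *unc-89*) summed to 1247 and 1020 CPM in these libraries and to 2159 to 5007 CPM in the other 16. The edgeR comparisons that use either library were also fitted without both of them.

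All 8 genes were scarce. Together they made up 3.98 to 9.30 CPM on unscaled totals, up to 1038 counts in a library, and single genes had between 5 (*nhr-38* in *fust-1; ceh-14* B) and 363 counts (*ttx-1* in wild type A). Every gene had counts in every library, and all 8 passed the filter on low counts in the tests over 18 libraries. Each sits apart from other genes, with no exon bases shared with another annotated gene, and none is on the X chromosome, which holds *ceh-14*. In WBcel235, *gcy-8* lies on chromosome IV at 7928152 to 7933782, *gcy-18* on IV at 12860097 to 12865956, *gcy-23* on IV at 3282885 to 3289337 and *nhr-38* on IV at 9710187 to 9712420. *gcy-29* lies on chromosome II at 14540895 to 14548791, *tax-2* on I at 9020945 to 9025608, *tax-4* on III at 9181546 to 9185888 and *ttx-1* on V at 20053719 to 20064176.

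Scaled to the length of the merged exons, *ttx-1* was the most abundant of the 8 genes, at 1.66 ± 0.399 CPM per kilobase (mean ± SD, n = 18 libraries). Its lowest library (0.889) lay above the highest library of the next gene, *nhr-38* (0.333 ± 0.130, highest 0.600). From *nhr-38* downwards the order was *gcy-29* (0.313 ± 0.099), *gcy-18* (0.244 ± 0.073), *tax-2* (0.215 ± 0.036), *gcy-23* (0.204 ± 0.073), *gcy-8* (0.162 ± 0.070) and *tax-4* (0.136 ± 0.035). Neighbours in this order overlapped, and the gene named first was the higher one in 10 to 14 of 18 libraries. The differences between neighbours, which were measured in the same libraries, were not tested. The plot of levels per exon length shows the gap under *ttx-1* and the overlap of the others.

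**Figure D1:**
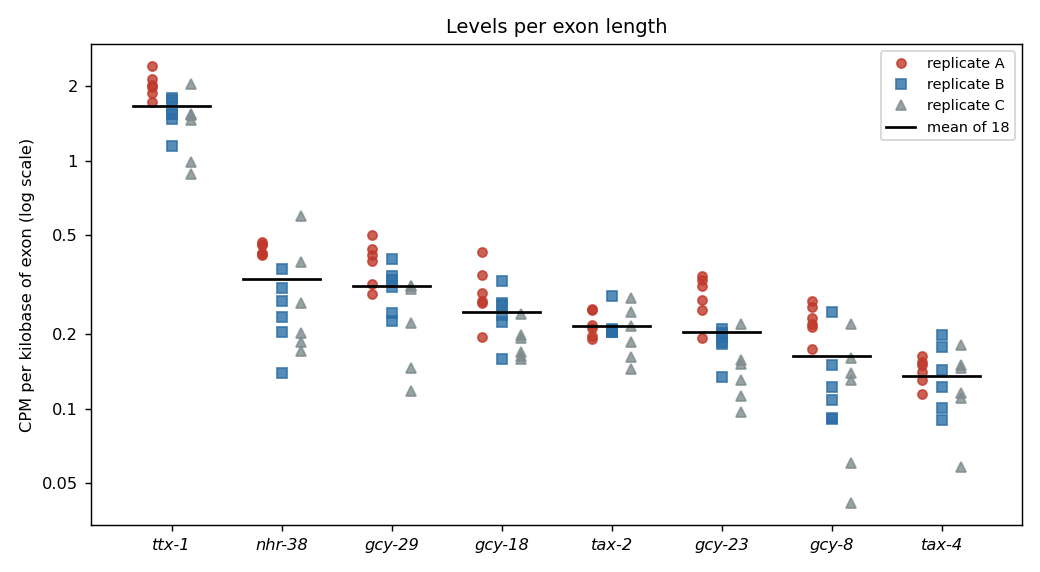
CPM per kilobase of merged exon (log axis) of the 8 genes in 18 libraries, with 1 point per library, shaped by replicate letter, and a line at the mean. *ttx-1* sits at 0.889 to 2.42, above every library of the other 7 genes, which overlap each other.

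Loss of *ceh-14* was the first question put to these genes, since each of 3 backgrounds (no further mutation, *fust-1*, *tdp-1*) was measured with and without *ceh-14*. None of the 8 genes passed the test. In the additive model of background and *ceh-14* status over 18 libraries, edgeR's quasi-likelihood test called 0 of 8 at an adjusted p under 0.05, where it called 2.11% of all genes tested (1.30% lower and 0.809% higher), or 3.61% once the replicate letter was a block. An unadjusted p under 0.05 was found for 0 of 8 and for 2460 of all 17560 genes tested. DESeq2 called 0 of 8, and it called 5.05% of all genes. The log2 fold changes of the 8 genes ran from -0.32 to 0.10 with a median of -0.17, beside a median of -0.03 over all genes tested. The lowest bound of any 95% interval was a log2 fold change of -0.89, a fold of 0.538, and the highest was 0.54, a fold of 1.45. *ceh-14* mRNA itself fell by 1.81 on the log2 scale (95% interval -2.29 to -1.33, edgeR adjusted p = 0.000142).

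**Figure D2:**
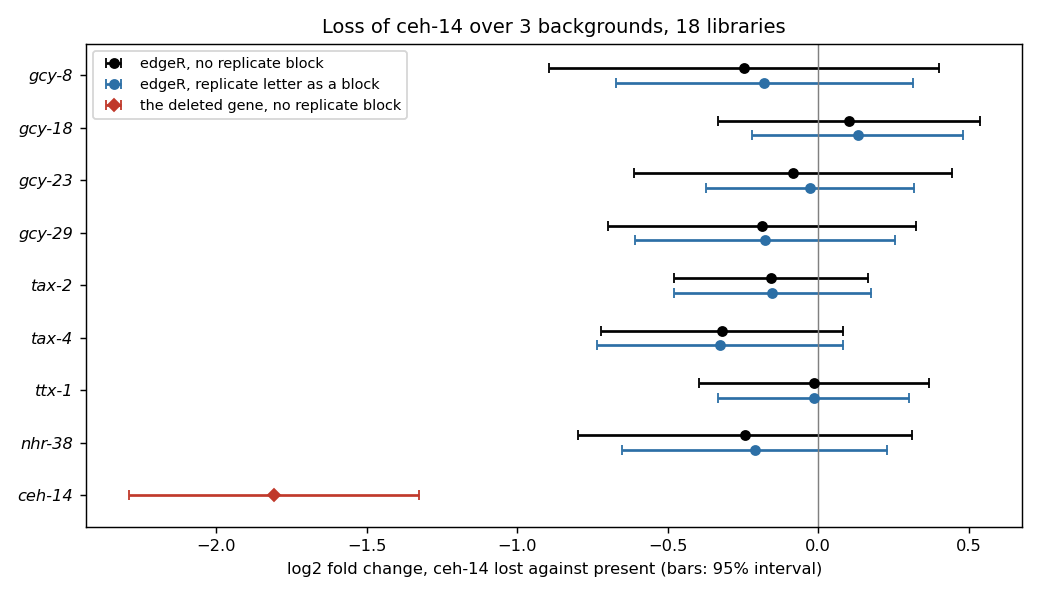
Log2 fold change of each gene for *ceh-14* lost against present over 18 libraries, with the 95% interval as bars, from edgeR without a block (black) and with the replicate letter blocked (blue), and for *ceh-14* itself (red). All 16 intervals of the AFD genes include 0, and the interval of *ceh-14* lies at -2.29 to -1.33.

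*gcy-8* encodes a cyclase found in AFD alone. Its CPM in replicates A, B and C was 0.803, 0.395 and 0.475 in wild type, from 93, 14 and 9 counts, and 0.637, 0.548 and 0.507 in *ceh-14*, from 31, 55 and 20 counts. In the *fust-1* background it was 0.938, 0.893 and 0.801 with *ceh-14* and 0.777, 0.447 and 0.586 without it. In the *tdp-1* background it was 0.994, 0.334 and 0.152 with *ceh-14* and 0.847, 0.331 and 0.220 without it. The *ceh-14* libraries lay inside the wild-type range, the *tdp-1; ceh-14* libraries lay inside the *tdp-1* range, and only the *fust-1; ceh-14* libraries all lay below those of their background. The nearest pair there was *fust-1* C at 0.801 CPM and *fust-1; ceh-14* A at 0.777 CPM, and groups without overlap were found for 11.1% of all genes in this comparison. Over the 3 backgrounds the log2 fold change of *gcy-8* was -0.25 (95% interval -0.89 to 0.40, edgeR adjusted p = 0.871), and in the *fust-1* background alone it was -0.53 (-1.32 to 0.26, edgeR adjusted p = 0.832).

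*gcy-18* and *gcy-23* encode the other cyclases of the AFD-specific trio, which act redundantly with GCY-8. *gcy-18* stood at 1.09, 0.593 and 0.738 CPM in wild type (126, 21 and 14 counts) and at 1.60, 1.22 and 0.608 CPM in *ceh-14* (78, 122 and 24 counts). Replicates A and B of *ceh-14* were the higher pair, above every wild-type library, while replicate C lay inside the wild-type range. The log2 fold change in this pair of genotypes was 0.48 (95% interval -0.49 to 1.46), and over the 3 backgrounds it was 0.10 (-0.33 to 0.54). *gcy-23* stood at 1.11, 0.621 and 0.527 CPM in wild type and at 1.05, 0.678 and 0.735 CPM in *ceh-14*, with every *ceh-14* library inside the wild-type range. Over the 3 backgrounds its log2 fold change was -0.08 (-0.61 to 0.45). *gcy-29*, a cyclase of AFD that is not limited to it, ranged from 0.475 to 1.63 CPM (median 1.07) in the 9 libraries with *ceh-14* and from 0.381 to 1.43 CPM (median 1.01) in the 9 without it. The ranges overlapped nearly throughout, and the log2 fold change was -0.19 (-0.70 to 0.33).

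The channel subunit genes varied less. *tax-2* encodes the modulatory subunit of the cyclic nucleotide-gated channel. It ranged from 0.398 to 0.698 CPM (median 0.536) with *ceh-14* and from 0.356 to 0.617 CPM (median 0.502) without it, a log2 fold change of -0.16 (95% interval -0.48 to 0.17). *tax-4* encodes the subunit that can form a channel by itself, and it had the lowest p of the 8 genes. It stood at 0.380, 0.254 and 0.369 CPM in wild type and at 0.411, 0.309 and 0.279 CPM in *ceh-14*, which overlap. In the *tdp-1* background it stood at 0.355, 0.362 and 0.380 CPM (20, 13 and 20 counts), and in *tdp-1; ceh-14* at 0.290, 0.227 and 0.147 CPM (12, 24 and 10 counts). All 3 *tdp-1; ceh-14* libraries lay below all 3 *tdp-1* libraries. The log2 fold change there was -0.74 (-1.58 to 0.10, edgeR adjusted p = 0.259), and groups without overlap were found for 30.8% of all genes in this comparison. Marker sums without overlap here were those of hypodermis (461 to 476 CPM in *tdp-1*, 68.1 to 133 CPM in *tdp-1; ceh-14*), the last larval molt (104.04 to 208 and 67.5 to 83.8 CPM) and intestine (1386 to 1902 and 850 to 1202 CPM), while the ciliated sensory neuron markers overlapped (37.9 to 44.9 and 26.7 to 42.01 CPM). Their part in the *tax-4* levels was not tested. Over the 3 backgrounds *tax-4* had a log2 fold change of -0.32 (-0.72 to 0.08, edgeR adjusted p = 0.522). An exact permutation of *ceh-14* status within each background (two-sided, 8000 arrangements, smallest possible p 0.00025) gave p = 0.0685 for *tax-4* and 0.201 to 0.908 for the other 7 genes. It did not pair the libraries by replicate letter.

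*ttx-1*, the gene for the OTX-type homeodomain factor, had a narrower interval than *nhr-38*. It stood at 3.14, 2.79 and 2.27 CPM in wild type (363, 99 and 43 counts) and at 2.69, 2.39 and 3.17 CPM in *ceh-14* (131, 240 and 125 counts). The groups overlapped, and over the 3 backgrounds the log2 fold change was -0.01 (95% interval -0.40 to 0.37, edgeR adjusted p = 0.996). *nhr-38* encodes a nuclear hormone receptor expressed in AFD. It stood at 0.562, 0.452 and 0.738 CPM in wild type (65, 16 and 14 counts) and at 0.514, 0.289 and 0.481 CPM in *ceh-14* (25, 29 and 19 counts). The *ceh-14* libraries were on the low side of wild type but overlapped them, and the log2 fold change was -0.43 in this pair of genotypes (-1.28 to 0.42) and -0.24 over the 3 backgrounds (-0.80 to 0.31).

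**Figure D3:**
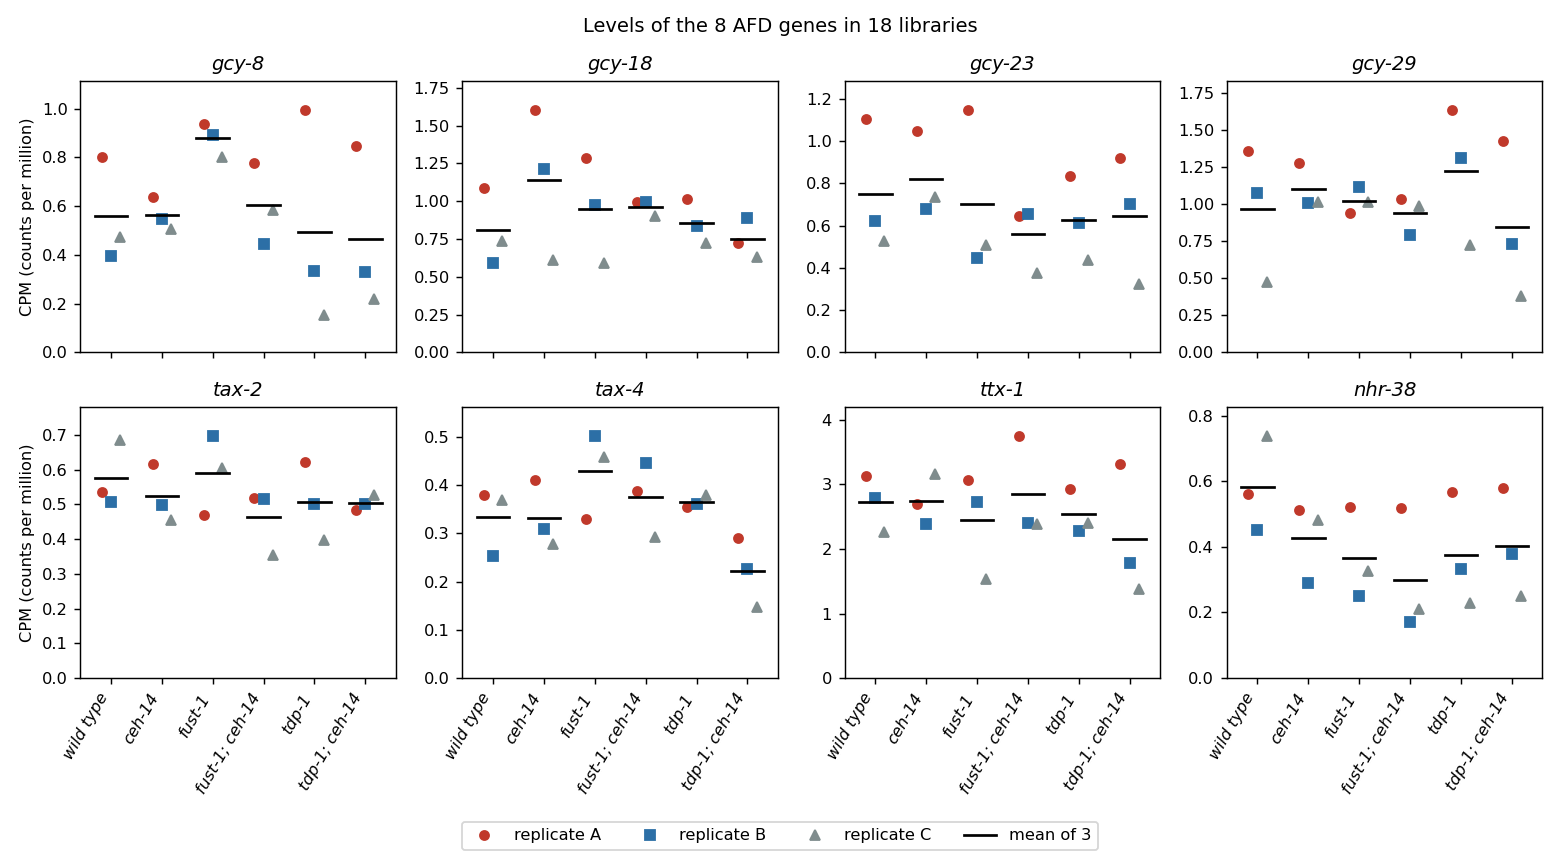
CPM of the 8 genes in the 6 genotypes (linear axes from 0, a scale per gene), with a point per library shaped and coloured by replicate letter and a line at the mean of 3. For *tax-4* the 3 *tdp-1; ceh-14* libraries lie below the 3 *tdp-1* libraries, and replicate A (red circles) is the highest of its genotype for *gcy-8* in 6 of 6 genotypes.

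Within single backgrounds, 0 of 8 genes were called by edgeR in *ceh-14* against wild type (0.0920% of all genes, and 1.28% with the replicate block), in *fust-1; ceh-14* against *fust-1* (0.0494%) and in *tdp-1; ceh-14* against *tdp-1* (3.67%, and 7.30% with the block). An unadjusted p under 0.05 was found for 0 of 8 in each. Over all genes tested it was found for 657 of 16299, 817 of 16202 and 3721 of 16849, in that order. DESeq2 also called 0 of 8 in each, where it called 0.828%, 0.464% and 8.09% of all genes in that order. Of the 24 pairs of a gene and a background, 2 had groups without overlap, those of *gcy-8* and *tax-4* given above. In *ceh-14* against wild type the groups of all 8 genes overlapped, where 7.27% of all genes had groups without overlap.

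Loss of *fust-1* or *tdp-1* was compared over both states of *ceh-14*. For *fust-1*, 0 of 8 genes were called by edgeR (0.0683% of all genes) and 0 of 8 by DESeq2 (0.225%). For *tdp-1*, 0 of 8 genes were called by edgeR (0.0683% of all genes, and 0.831% with the replicate block) and 0 of 8 by DESeq2 (2.83%). The number with an unadjusted p under 0.05 was 0 of 8 for either loss without the block. Of all 17560 genes tested, 712 had such a p on loss of *fust-1* and 3257 on loss of *tdp-1*. With the block, 1 of 8 had such a p on loss of *fust-1* (5.48% of all genes), that of *nhr-38*, and 0 of 8 were called (0.103% of all genes). The AFD gene with the lowest p was *nhr-38* on loss of *fust-1*, at a log2 fold change of -0.58 (95% interval -1.27 to 0.11) without the block and of -0.60 (-1.15 to -0.05, edgeR adjusted p = 0.886) with it. Its CPM was 0.521, 0.251 and 0.327 in *fust-1* and 0.518, 0.172 and 0.209 in *fust-1; ceh-14*. Replicate A of both genotypes lay inside the wild-type range and the other 4 libraries lay below it. Within each letter, *fust-1* was below wild type in 3 of 3 pairs. The *ceh-14* single mutant stood at 0.514, 0.289 and 0.481 CPM. Against it, *fust-1; ceh-14* was lower in B and C and slightly higher in A. On loss of *tdp-1* the log2 fold change of *nhr-38* was -0.33 (-0.998 to 0.33). For *gcy-8* the change on loss of *fust-1* was 0.35 (-0.44 to 1.15), with the 3 *fust-1* libraries at 0.801 to 0.938 CPM and the 3 *fust-1; ceh-14* libraries at 0.447 to 0.777 CPM.

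Against wild type, the single mutants *fust-1* and *tdp-1* also had 0 of 8 genes called by edgeR, where it called 0.0184% of all genes in *fust-1* and 0.128% in *tdp-1* (5.65% with the replicate block). In both, 0 of 8 reached an unadjusted p under 0.05, beside 335 of 16315 genes tested in *fust-1* and 3154 of 16415 in *tdp-1*. DESeq2 called 0 of 8 in both, where it called 0.136% and 5.10% of all genes. These comparisons and that of *ceh-14* share the 3 wild-type libraries. The interaction tests asked whether a double loss departed from the sum of the single losses. They called 0 of 8 genes for *fust-1* and *ceh-14* (0.0237% of all genes) and 0 of 8 for *tdp-1* and *ceh-14* (0.0405%). Again 0 of 8 reached an unadjusted p under 0.05, beside 308 of 16862 and 1929 of 17305 genes tested. By DESeq2 they called 0 of 8 as well, where 0.0644% and 0.351% of all genes were called. Their intervals were wide. The interaction term of *gcy-8* with *fust-1* was -0.48 on the log2 scale (95% interval -1.52 to 0.56), that of *ttx-1* with *fust-1* was 0.23 (-0.73 to 1.198), and those with *tdp-1* were -0.72 for *tax-4* (-1.77 to 0.32) and 0.50 for *nhr-38* (-0.82 to 1.83).

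Several of these genes differed by replicate letter, a comparison chosen after the values had been seen. The labels give the letter and do not say what it marks, and it does not follow depth: replicate A was the deepest library of wild type and the shallowest of *fust-1; ceh-14*. In a model of genotype and replicate A against replicates B and C, edgeR called 4 of the 8 genes, all higher in A (*gcy-8*, *gcy-23*, *ttx-1* and *nhr-38*), and DESeq2 called 5, adding *gcy-29*. An unadjusted p under 0.05 was found for 6 of 8 and for 44.2% of all genes. The background is high: edgeR called 29.9% of all genes tested, and 12.9% were called higher in A, while DESeq2 called 28.0%. The median log2 fold change of the 8 genes was 0.52, beside -0.05 over all genes tested.

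*gcy-8* had the largest difference between the letters. It stood at 0.637 to 0.994 CPM (median 0.825, 18 to 93 counts) in the 6 libraries of replicate A and at 0.152 to 0.893 CPM (median 0.461, 8 to 55 counts) in the 12 of B and C. In each of the 6 genotypes replicate A was the highest of the 3 libraries, as it was for 6.49% of all genes tested, and 2 of the 12 B and C libraries, *fust-1* B and C, reached the range of A. The ratio of A to the mean of B and C ran from 1.11 in *fust-1* to 4.09 in *tdp-1*, and the log2 fold change was 0.93 (SE 0.24, 95% interval 0.43 to 1.44, edgeR adjusted p = 0.0112). *gcy-23* stood at 0.647 to 1.15 CPM (median 0.984) in A and at 0.323 to 0.735 CPM (median 0.570) in B and C. Of the 6 A libraries, 5 lay above every B and C library, and the exception was *fust-1; ceh-14* A. Its log2 fold change was 0.79 (SE 0.18, 95% interval 0.40 to 1.18, edgeR adjusted p = 0.00769).

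*nhr-38* was nearly level among the A libraries, at 0.514 to 0.581 CPM (median 0.541), and stood at 0.172 to 0.738 CPM (median 0.308) in B and C. Wild type C was the only library of B and C at or above the A range, and the log2 fold change was 0.73 (SE 0.21, edgeR adjusted p = 0.0199). *ttx-1* stood at 2.69 to 3.75 CPM (median 3.11) in A and at 1.38 to 3.17 CPM (median 2.39) in B and C, with 3 B and C libraries inside the A range. Its log2 fold change was 0.48 (SE 0.15, edgeR adjusted p = 0.0283). The call of *ttx-1* was lost without replicate A or B of *fust-1; ceh-14* and without replicate A of wild type, *fust-1* or *tdp-1; ceh-14*, and that of *nhr-38* without replicate A of *fust-1* or *tdp-1; ceh-14*. Without *tdp-1; ceh-14* A, 2 genes remained called (*gcy-8* and *gcy-23*), without *fust-1* B 6 were called, and without both libraries that stood apart 4 were called. In that order, 1042 of 17891, 2969 of 17880 and 2673 of 17491 genes tested were called higher in A. With every library it was 2265 of 17560.

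The other cyclases had log2 fold changes of 0.46 (*gcy-18*, 95% interval 0.07 to 0.85, edgeR adjusted p = 0.0658) and 0.55 (*gcy-29*, 0.10 to 1.01, edgeR adjusted p = 0.0617) in A. The channel subunits, shared with many other sensory neurons, had 0.07 (*tax-2*, -0.28 to 0.42) and 0.15 (*tax-4*, -0.27 to 0.56). Their levels in A, at 0.469 to 0.621 CPM for *tax-2* and 0.290 to 0.411 CPM for *tax-4*, lay inside those of B and C, at 0.356 to 0.698 and 0.147 to 0.502 CPM. The difference between the cyclases and the channel subunits in this contrast was not tested.

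**Figure D4:**
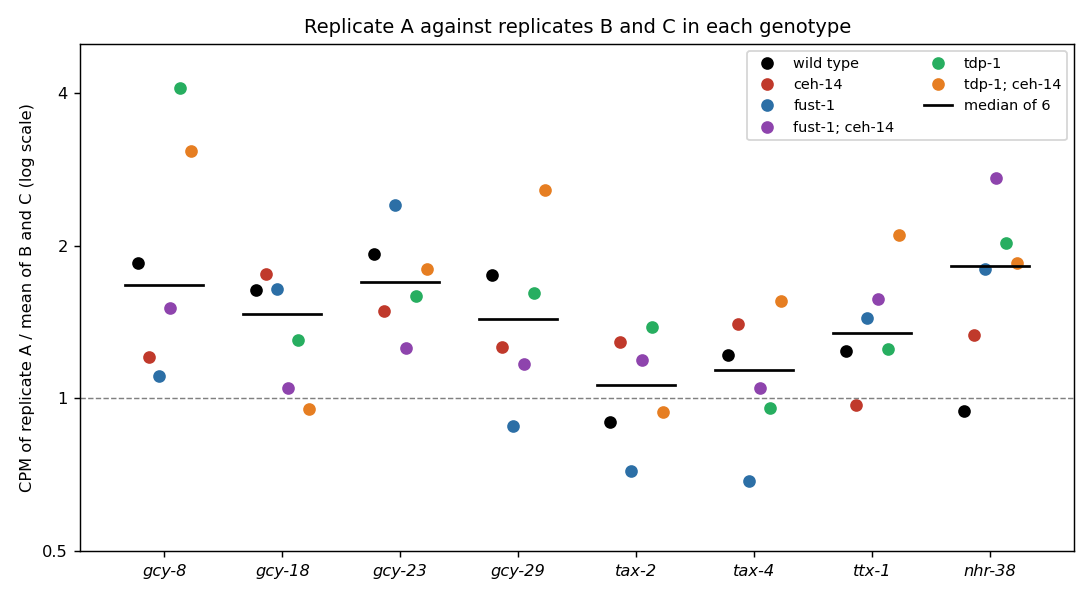
CPM of replicate A over the mean CPM of replicates B and C (log axis, dashed line at 1) for each gene, with a point per genotype and a line at the median of 6. The ratios of *gcy-8* and *gcy-23* lie above 1 in all 6 genotypes, at 1.11 to 4.09 and 1.26 to 2.40. Those of every other gene lie on both sides of 1.

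Marker sums of other cells were compared between the letters. The 14 markers of ciliated sensory neurons, all with counts in every library, summed to 41.8 to 50.3 CPM in A and to 26.7 to 44.6 CPM in B and C. The 12 pan-neuronal markers summed to 349 to 357 CPM in A and 308 to 364 CPM in B and C. The 5 markers of amphid sheath glia (*ttx-1* among them) summed to 31.8 to 39.2 CPM in A and 12.9 to 32.5 CPM in B and C, the 4 body wall muscle markers to 3908 to 5007 and 1020 to 4241 CPM, the 3 adult markers (*vit-2*, *vit-5* and *col-19*) to 15499 to 37378 and 8226 to 25066 CPM, and the 5 spermatogenesis markers to 33.8 to 67.3 and 46.3 to 126 CPM. The intestine markers summed to 959 to 1386 CPM in A (median 1142) and 772 to 1902 CPM in B and C (median 1203), the hypodermis markers to 41.0 to 476 (median 84.0) and 15.7 to 476 CPM (median 109), those of the last larval molt to 72.7 to 165 (median 87.7) and 67.5 to 208 CPM (median 94.1), and the germline markers to 2100 to 2562 (median 2378) and 1527 to 2471 CPM (median 2153). The ranges overlapped for all 10 of these lists, and those of the pan-neuronal, intestine and last larval molt markers in A lay inside those of B and C. The part of these markers in the higher AFD levels of replicate A was not tested. Between the libraries with and without *ceh-14*, the ciliated sensory neuron markers summed to 29.1 to 46.4 and 26.7 to 50.3 CPM, the pan-neuronal markers to 315 to 355 and 308 to 364 CPM, and the sheath glia markers to 12.9 to 39.2 and 13.04 to 35.0 CPM.

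The genes differed in how far their replicates spread beyond counting error. Within genotypes, the chi-square per degree of freedom (12 degrees of freedom) was 0.704 for *tax-2* and 0.709 for *tax-4*, where counting error alone gives about 1. It was 2.93 for *nhr-38*, 4.03 for *gcy-18*, 5.45 for *gcy-23*, 5.97 for *gcy-29*, 6.63 for *gcy-8* and 9.33 for *ttx-1*. The coefficient of variation within a genotype, averaged over genotypes, was 16.4% for *tax-2* and 41.3% for *gcy-8*, while counting error at the median library gives 20.9% and 18.4%. Across the 18 libraries the deviations from the genotype means correlated between the cyclase genes with r of 0.28 to 0.78 over 6 pairs (median 0.62), and between a channel subunit and one of the other 6 genes with r of -0.08 to 0.36. *ttx-1* and *nhr-38* correlated with the cyclase genes at r of 0.25 to 0.71 and with each other at 0.62. *tax-2* and *tax-4* correlated with each other at 0.51. These values describe points that share a library, its depth and its scaling.

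Other genes of the pathway were taken from lists. Of 21 tested genes of AFD and of thermotaxis behaviour outside the 8, edgeR called 0 lower and 0 higher on loss of *ceh-14*, with a median log2 fold change of -0.06. Of all genes tested, 1.30% were called lower and 0.809% higher. The most abundant of them, *egl-4* (a cGMP-dependent protein kinase) and *pde-2* (a phosphodiesterase), ranged from 172 to 384 and from 69.8 to 161 CPM without *ceh-14* against 248 to 381 and 92.8 to 189 CPM with it. Their log2 fold changes were -0.05 (95% interval -0.30 to 0.21) and -0.16 (-0.44 to 0.13). In replicate A, 4 of these 21 were called higher and 0 lower, beside 2265 higher and 2981 lower of all 17560 genes tested.

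Of the 23 tested guanylyl cyclase genes of other cells (29 in the files), 1 was called, and it was higher without *ceh-14*. Of all genes tested, edgeR called 2.11% on loss of *ceh-14*, and 0.809% were called higher. *gcy-9*, the receptor cyclase by which the BAG neurons sense carbon dioxide, stood at 1.72 to 3.12 CPM (median 2.09) in the 9 libraries without *ceh-14* and at 0.946 to 1.68 CPM (median 1.53) in the 9 with it. Its log2 fold change was 0.60 (SE 0.14, edgeR adjusted p = 0.0356), and the call held in 11 of 24 alternative fits, with edgeR or DESeq2 adjusted p up to 0.0919 and log2 fold changes of 0.51 to 0.66. It was lost without the filter on low counts and on leaving out any library of wild type or *tdp-1*, replicate B of *fust-1*, A or C of *ceh-14*, A or B of *fust-1; ceh-14*, or A of *tdp-1; ceh-14*. The median of the list was -0.11. In replicate A 4 of the 23 were called higher and 0 lower, where 12.9% of all genes tested were called higher.

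Of 16 tested identity genes of other sensory neurons, 0 were called on loss of *ceh-14* (median -0.17), where 2.11% of all genes tested were called. In replicate A 4 were called higher and 2 lower, beside 2265 higher and 2981 lower of all 17560 genes tested. The most abundant were *mec-7*, the beta-tubulin of touch neurons (log2 fold change -0.04, 95% interval -0.36 to 0.28), and *ceh-37*, an OTX-type factor (-0.21, -0.64 to 0.22). Of 5 tested transcription factors of AFD or its glia outside the 8, 0 were called in either contrast (median -0.13 on loss of *ceh-14*), with *lin-26* at 0.06 (-0.30 to 0.41) and *egl-13* at -0.13 (-0.59 to 0.33). Of all genes tested, edgeR called 2.11% on loss of *ceh-14* and 29.9% in the contrast of replicate A.

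Of 16 tested genes of ALA and other neurons that use *ceh-14*, 3 were called lower and 0 higher, where 1.30% of all genes tested were called lower, with a median log2 fold change of -0.25. One was the deleted gene *ceh-14* itself, whose fall was set by the deletion, and the others were the FMRFamide-like peptide genes *flp-24* and *flp-7*. This list was chosen with earlier results of these data known, so its count is not independent of them. *flp-24* stood at 4.03 to 9.61 CPM (median 5.30) without *ceh-14* and at 6.20 to 14.4 CPM (median 10.6) with it, a log2 fold change of -0.91 (SE 0.15, edgeR adjusted p = 0.00304). *flp-7* stood at 1.99 to 3.68 CPM (median 2.56) against 2.93 to 5.94 CPM (median 4.08), a log2 fold change of -0.69 (SE 0.12, edgeR adjusted p = 0.00342). The ranges of both peptide genes overlapped, and both calls held in 24 of 24 alternative fits. The difference between this list and the AFD genes was not tested. In replicate A, 4 of the 16 tested genes of this list were called higher and 0 lower, where 12.9% of all genes tested were called higher.

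The genes whose levels over the 18 libraries followed the mean standardized log2 CPM of *gcy-8*, *gcy-18* and *gcy-23* most closely were *odr-10* (Pearson r 0.904), *citk-2* (0.883), *mix-1* (0.880), *heri-1* (0.879) and *hcp-6* (0.878), among 17560 genes whose 95th percentile was 0.711. *odr-10*, the diacetyl receptor gene of the AWA olfactory neurons, was as scarce as the cyclases, at a mean of 0.765 CPM, and the other 4 had means of 25.1 to 120 CPM. These 5 genes had log2 fold changes of 0.35 to 1.09 in replicate A and of -0.22 to -0.01 on loss of *ceh-14*. Among the other AFD genes, r was 0.643 for *gcy-29*, 0.603 for *ttx-1*, 0.485 for *nhr-38*, 0.424 for *tax-4* and 0.259 for *tax-2*.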

How the data were processed

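Per the labels and the study's methods, paired reads had been aligned by the authors to the WBcel235 genome (STAR 2.5.3a) and counted by gene (HTSeq 0.9.1). The deposited values are whole, unnormalized counts. The strand setting is not given in the sources used here. The 5 tallies of unassigned records stayed out of library sizes and tests.

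Tests used edgeR 4.0.16 (filterByExpr, TMM, quasi-likelihood) in R 4.3.3, with Benjamini-Hochberg adjustment of p over every gene in the fit and a threshold of 0.05. Per-pair comparisons used their own libraries. Intervals are 95% and come from fits without the replicate block unless the block is named. SE is the log2 fold change over the square root of F. edgeR holds p at or above its Poisson value, which these intervals do not take up. DESeq2 1.42.0 was an alternative, with its size factors in edgeR, no filter, the replicate block, 1 fit of all libraries and each library left out. CPM used TMM-scaled sizes, and log2 CPM a prior count of 2. Scripts were tested on simulated data.

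Named genes are the 8 members, the deleted genes, called list genes (at most 4 a list) or else the 2 most abundant, and the 5 most alike. *gcy-12*, *lin-11* and *mec-3* stand in more than 1 list. The members and lists were chosen with earlier results of these data known. The replicate A contrast was added after the values were seen. Same-letter deviations correlated over 0.1 in 39 of 45 pairs (-0.17 to 0.66), and in every pair for *ceh-14*, *fust-1* and *tdp-1* against wild type and *tdp-1; ceh-14* against *tdp-1*, where the libraries count as paired by letter. A p-value reflects only how far these libraries spread. Promoter motifs and protein identity were not analysed here.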

Additional observations from a re-analysis of the deposited data

How the results depend on the processing

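Each of the 10 genotype comparisons kept 0 AFD genes called in all 164 alternative fits, which tested 8 genes each except *fust-1; ceh-14* against *fust-1* without *fust-1* A, which tested 7. Some gave an unadjusted p under 0.05. *tdp-1; ceh-14* against *tdp-1* had 1 of 8 in the fit of all libraries (3851 of 17560 genes tested). It had 1 of 8 without *tdp-1; ceh-14* A (6846 of 17263). *tdp-1* against wild type had 2 of 8 without *tdp-1* A (2272 of 16258). *fust-1* against wild type had 1 of 8 without wild type A (233 of 16200). Loss of *fust-1* also had 2 of 8 without *fust-1* A (776 of 17759) and 1 of 8 without *fust-1; ceh-14* A (841 of 17880). For replicate A, the count of 4 ran from 2 to 6 when each library was left out. On loss of *ceh-14* the sign changed when single libraries were left out, with ranges of -0.44 to 0.025 for *gcy-8*, -0.013 to 0.19 for *gcy-18*, -0.18 to 0.084 for *gcy-23*, -0.11 to 0.071 for *ttx-1*, -0.0999 to 0.0403 for *egl-4*, -0.092 to 0.059 for *mec-7*, -0.058 to 0.14 for *lin-26* and -0.25 to 0.00242 for *egl-13*. *gcy-23* turned to 0.048 with the replicate block and both libraries that stood apart left out. The interaction of *ttx-1* with *fust-1* ran from -0.0338 (without *fust-1* C, the one library apart in that fit) to 0.47 over left-out libraries. The cause was not tested. The block changed no call of an AFD gene.

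Counts over all genes moved more. On loss of *ceh-14* edgeR called 371 genes, 634 with the replicate block, 895 with DESeq2 and 199 to 729 with a library left out. For *ceh-14* against wild type it called 15, and 209 with the block, 144 with DESeq2, 39 without the filter, 35 in the fit of all libraries and 5 to 22 with a library left out. For *tdp-1; ceh-14* against *tdp-1* the count was 619, and 1230, 1450 and 203 to 2764 with block, DESeq2 and a library left out. For *tdp-1* against wild type it was 21, and 927, 838, 401 without the filter, 60 in the fit of all libraries and 3 to 1128. For loss of *tdp-1* it was 12, and 146 with the block, 517 with DESeq2, 19 without the filter, 22 without both libraries and 10 to 34. Loss of *fust-1* had 12 calls, 18 with the block and 50 with DESeq2. *fust-1; ceh-14* against *fust-1* had 8, 97 with DESeq2, 48 in the fit of all libraries and 1 to 12 with a library left out. *fust-1* against wild type had 3, 27 with DESeq2, 9 without the filter, 6 with the block, 14 in the fit of all libraries and 1 to 7 with a library left out. The interactions had 4 (*fust-1*) and 7 (*tdp-1*), 13 and 70 with DESeq2, and 2 to 7 and 5 to 12 with a library left out. Replicate A had 5246 calls, and 2744 to 6240 with a library left out. Counts of 5 to 363 a library limit precision through counting error, beside the spread between replicates given above.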
